A study of Mus musculus with 6 samples.

Results

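The homeodomain-interacting protein kinases were followed at the RNA level in MIN6B1, a mouse insulinoma line that secretes insulin and stands in for beta cells in culture. The cultures received a small interfering RNA (siRNA) against circHIPK3 or, as the control, an siRNA against green fluorescent protein (siGFP), both for 48 h with a lipid transfection reagent and in the same medium. Each group held 3 samples, and total RNA was read on single-colour Agilent mouse arrays, 1 per sample. The 4 genes, of 20659 that could be named on the array, are represented by every non-control probe whose accession belongs to Hipk1, Hipk2, Hipk3 or Hipk4. These were 8 of 39429 probes, namely 3 for Hipk1, 2 for Hipk2, 2 for Hipk3 and 1 for Hipk4, and all 8 passed the filter on dim probes. No change in RNA of any of the 4 genes passed the test. The intervals below give the range of each change under the scaling used here and the spread among the 6 arrays. They leave out differences between scalings and between slides, so larger changes remain possible.

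HIPK proteins are serine/threonine kinases related to the DYRK and CLK families. HIPK1, HIPK2 and HIPK3 are mainly nuclear and bind homeodomain transcription factors, corepressors and p53, and HIPK2 is known for phosphorylating p53 after DNA damage. HIPK4 lacks the homeodomain-interacting region and is best known from testis, where it acts in sperm head formation. Hipk3 is the host gene of circHIPK3, a circular RNA formed by back-splicing of the second exon, which is also part of the linear mRNA. A comparison of Hipk3 mRNA between the groups therefore bears on whether the linear transcript of the host gene differed after the circular RNA was targeted. The labelling protocol named in the labels is Agilent's Quick Amp, which in its usual form primes on the poly(A) tail, and a circular RNA has none. The position of each probe within its transcript is not given in the sources used here, so the probes check neither the level of circHIPK3 nor the sample labels.

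Over the 6 arrays, 2939 to 3669 units of processed signal marked the 75th percentile, and 77.7% to 83.5% of spots were well above background. According to the scan times in the file headers, circHIPK3 siRNA replicate 1 and the siGFP arrays were scanned together at positions 1 to 4 of a slide, and circHIPK3 siRNA replicates 2 and 3 were scanned apart from them at positions 3 and 4, here taken as a second slide. All 13 beta cell markers examined, among them Ins1, Ins2 and Mafa, were well above background on all 6 arrays. The glucagon gene Gcg was bright as well (log2 signal 4.09). Well above background on all arrays were also 4 of 6 fibroblast, 2 of 3 immune, 2 of 3 endothelial and 4 of 4 acinar and duct markers. The brightest marker of each of these lists had a log2 signal of -2.34, 1.54, 0.77 and -4.54 in that order. Beta cell markers ran from -2.28 to 6.97. Since most spots on each array were well above background, this flag alone does not show that such cells were present. None of the 30 marker genes tested passed the threshold between the groups (lowest limma adjusted p = 0.118). Nothing in the labels says that the replicates came from separate cultures. The p-values therefore cover the spread among these samples alone, which may be technical, and the number of arrays limits the precision. In such bulk RNA, fewer cells of a type and less RNA per cell cannot be told apart.

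Signals are given as log2 of the processed signal minus the array's own 75th percentile, so that 0 is the level of that percentile. Changes are circHIPK3 siRNA minus siGFP on this scale, with the standard error (SE) and the unadjusted 95% confidence interval of the limma fit over all 31362 kept probes. Probes of a gene are numbered from the brightest. Levels of different probes are not compared, since probes differ in how they bind and label.

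Hipk3, the host gene, was lower on average after circHIPK3 siRNA by both probes, and neither difference passed. Probe 1 of Hipk3 (A_52_P109010) read 2.69, 2.96 and 2.78 on the siGFP arrays and 2.53, 2.89 and 2.51 on the circHIPK3 siRNA arrays. In both groups replicate 2 was the highest, and among the circHIPK3 siRNA arrays replicate 2 fell inside the siGFP range while replicates 1 and 3 were below it. The change was -0.17 ± 0.14 (SE), with an interval from -0.49 to 0.15 and a limma adjusted p of 0.505. Leaving out an array moved it to between -0.29 (without circHIPK3 siRNA replicate 2) and -0.09 (without siGFP replicate 2). As a share of the siGFP level this is 89.0%, with an interval from 71.3% to 111%. Probe 2 (A_55_P2035963) read -1.44, -1.28 and -1.28 on the siGFP arrays and -1.77, -1.44 and -1.70 on the circHIPK3 siRNA arrays. Here the groups met at their edges: circHIPK3 siRNA replicate 2 and siGFP replicate 1 had nearly the same value, and the other 2 circHIPK3 siRNA arrays were lower than all siGFP arrays. Its change was -0.31 ± 0.12 (SE), with an interval from -0.59 to -0.02, an unadjusted p of 0.0367 by limma and an adjusted p of 0.212. That corresponds to 80.9% of the siGFP level, with an interval from 66.6% to 98.3%. The exact two-sided permutation tests gave p = 0.30 for probe 1 and p = 0.20 for probe 2, where 3 against 3 arrays cannot go below 0.10.

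**Figure D1:**
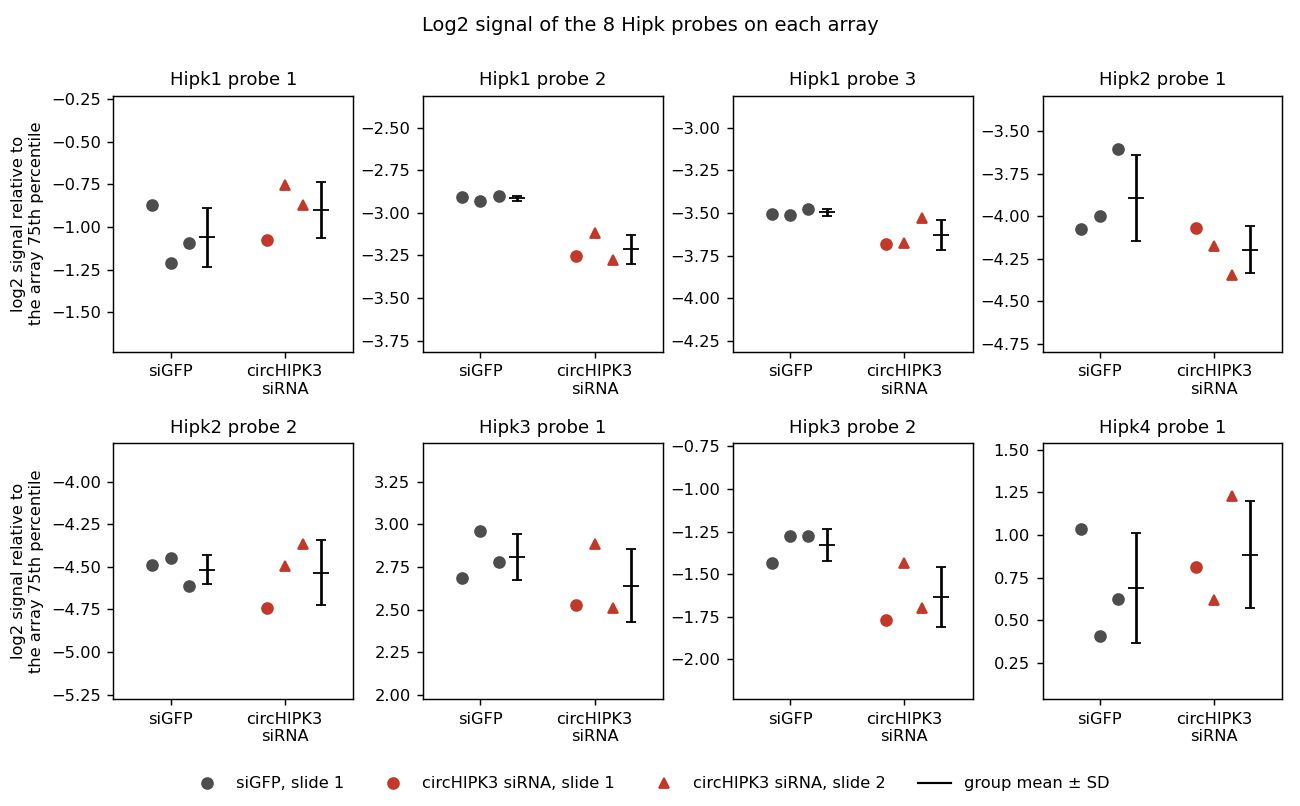
Log2 signal relative to the array's 75th percentile for the 8 Hipk probes, 1 point per array, with the mean and SD of each group of 3 beside the points. Circles are arrays of the first slide and triangles of the second, and every panel spans the same range of log2 units. The groups are separate only for Hipk1 probes 2 and 3, where all siGFP arrays lie above all circHIPK3 siRNA arrays.

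Hipk1, the nuclear kinase closest to HIPK2 in sequence, gave different pictures by its 3 probes. Probe 1 (A_66_P125962) read -0.87, -1.21 and -1.09 on the siGFP arrays and -1.08, -0.75 and -0.87 on the circHIPK3 siRNA arrays, with overlapping groups. Its change was 0.16 ± 0.13 (SE), with an interval from -0.15 to 0.47 and a limma adjusted p of 0.518, and leaving out an array gave 0.08 (without siGFP replicate 2) to 0.25 (without siGFP replicate 1). Probe 2 (A_55_P2176802) read -2.91, -2.93 and -2.90 on the siGFP arrays and -3.25, -3.12 and -3.28 on the circHIPK3 siRNA arrays. The groups did not overlap, with every circHIPK3 siRNA array lower, and the siGFP arrays were almost equal. The change was -0.30 ± 0.09 (SE), with an interval from -0.52 to -0.08, which is 81.2% of the siGFP level. It had the smallest p of the family (0.0136 unadjusted by limma), and its adjusted p of 0.145 missed the threshold. Probe 3 (A_55_P2087013) read -3.51, -3.51 and -3.47 on the siGFP arrays and -3.68, -3.68 and -3.53 on the circHIPK3 siRNA arrays. These groups did not overlap either, and the change of -0.13 ± 0.09 (SE) had a limma adjusted p of 0.438. For both probes the exact two-sided permutation p was 0.10, the smallest this design allows.

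Hipk2, the family member tied most closely to p53, was dim by both probes but well above background on every array. Probe 1 (A_55_P2091858) read -4.07, -4.00 and -3.60 on the siGFP arrays and -4.07, -4.17 and -4.35 on the circHIPK3 siRNA arrays. The highest value was siGFP replicate 3, and siGFP replicate 1 and circHIPK3 siRNA replicate 1 were close to each other. The change was -0.30 ± 0.15 (SE), with an interval from -0.65 to 0.04 and a limma adjusted p of 0.285, and it was -0.16 without siGFP replicate 3. Probe 2 (A_55_P2091861) read -4.49, -4.45 and -4.61 on the siGFP arrays and -4.74, -4.49 and -4.37 on the circHIPK3 siRNA arrays, so that the circHIPK3 siRNA group held both the lowest and the highest value. Its change was -0.02 ± 0.12 (SE), with an interval from -0.31 to 0.27 and a limma adjusted p of 0.949. The processed signals of the Hipk2 probes, 131 to 278 units, stood above the lowest signals counted as well above background, which were 21.9 to 27.3 units.

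Hipk4, the kinase without the homeodomain-interacting region, had a single probe (A_55_P2045414), which was well above background on all 6 arrays at 4858 to 8009 units. It read 1.04, 0.41 and 0.63 on the siGFP arrays and 0.81, 0.62 and 1.23 on the circHIPK3 siRNA arrays. The ranges overlapped widely. The change was 0.20 ± 0.21 (SE), with an interval from -0.29 to 0.68 and a limma adjusted p of 0.612. Single arrays moved it: it was 0.02 without circHIPK3 siRNA replicate 3, 0.05 without siGFP replicate 2, 0.33 without circHIPK3 siRNA replicate 2 and 0.37 without siGFP replicate 1. Its spread within groups (residual SD 0.32) was larger than that of 88.4% of kept probes, whereas those of Hipk1 probes 2 and 3 (0.06 each) were larger than only 5.40% and 5.66%. With 1 probe, nothing in the arrays checks this value against another part of the transcript.

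**Figure D2:**
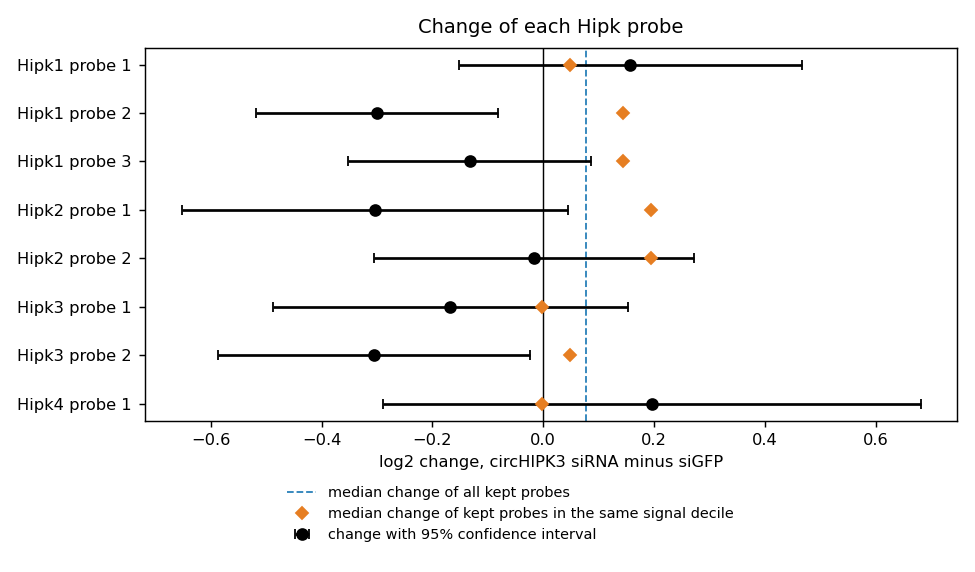
Change of each Hipk probe on the log2 scale (circHIPK3 siRNA minus siGFP) with its unadjusted 95% confidence interval. The dashed line is the median change of all kept probes (0.08) and each diamond is the median change of the kept probes in the same signal decile. The intervals of Hipk1 probe 2 and Hipk3 probe 2 lie below 0, and neither probe passed after adjustment.

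Across the 31362 kept probes 415 passed an adjusted p under 0.05 by limma, which is 1.32%, and 0 of the 8 Hipk probes did. At an unadjusted p under 0.05 it was 2 of 8 (Hipk1 probe 2 and Hipk3 probe 2), where all probes gave 21.0%. That count depended on the scaling: 4 of 8 Hipk probes reached it under quantile normalization, cyclic loess and in the deposited table, where all probes gave 18.1%, 17.9% and 17.6%, and 3 of 8 with scaling to the array median, where all probes gave 19.8%. The deposited table and quantile normalization gave nearly the same changes, so their counts are not separate. The groups did not overlap for 2 of 8, against 25.9% of all probes. Both were lower, where 9.74% of all probes were lower without overlap. The called probes were 233 lower and 182 higher in this scaling and 278 lower and 54 higher under quantile normalization. Every called probe had a change of at least 0.50 in size, and no Hipk probe had a change as large as that.

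The changes of 6 Hipk probes were below 0 and those of 2 above, with a median of -0.15, whereas the median of all kept probes was 0.08 and 37.0% of them were below 0. The median change of all probes moved with signal in this scaling, from 0.32 in the dimmest decile to -0.002 in the brightest. The 2 Hipk2 probes lay in a decile whose median change was 0.19, and Hipk1 probes 2 and 3 in a decile with 0.14. For the other probes the decile median was near 0: -0.002 for Hipk3 probe 1, 0.05 for Hipk3 probe 2 and Hipk1 probe 1, and -0.003 for Hipk4. Under quantile normalization, which gives all arrays the same distribution, the family median was -0.22 and the all-probe median 0.02. Again 6 Hipk probes were below 0, against 45.8% of all probes. Scaling to the median of each array lowered all changes alike, and the family median was then -0.25 against -0.03 for all probes. Since 3 genes supply 7 of the 8 probes, these are not 8 separate genes. With only the brightest probe of each gene, 2 genes lay below 0 and 2 above, with a median of -0.005.

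Within the first slide, which holds circHIPK3 siRNA replicate 1 and all siGFP arrays, the Hipk3 probes lay -0.28 and -0.44 from the siGFP mean. Hipk1 probes 1, 2 and 3 lay -0.02, -0.34 and -0.18 from it, Hipk2 probes 1 and 2 lay -0.18 and -0.23 from it, and Hipk4 lay 0.12 from it. A fit with slide as a fixed block gave the same differences, since only that slide holds both groups, and none passed (lowest limma adjusted p of the family 0.410). The second slide holds circHIPK3 siRNA arrays only and gives no value of its own.

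Whether probes of a gene moved unequally was asked with the difference between 2 probes on each array, for all 5 pairs within Hipk1, Hipk2 and Hipk3. For Hipk1, probe 1 minus probe 2 was 2.04, 1.72 and 1.81 on the siGFP arrays and 2.17, 2.36 and 2.40 on the circHIPK3 siRNA arrays. All circHIPK3 siRNA arrays were thus above all siGFP arrays, and the changes of the probes differed by 0.46. Probe 2 minus probe 3 of the same gene also separated the groups, with a difference in change of -0.17. Both had an exact two-sided permutation p of 0.10, the smallest possible, and 0.25 after Benjamini-Hochberg adjustment over the 5 pairs. How often probe pairs of other genes separate the groups was not counted, so the separation is not read as particular to Hipk1. The pair of Hipk3 probes differed in change by 0.14 (exact permutation p = 0.20), the Hipk2 pair by -0.29 (exact permutation p = 0.40) and Hipk1 probe 1 minus probe 3 by 0.29 (exact permutation p = 0.20), with overlapping groups. The exact test could let no pair pass at this size. A limma fit over all 6441 pairs of kept probes that share a gene, added after seeing the data, could: 4 pairs passed an adjusted p under 0.05, which is 0.0621%, and 0 of the 5 Hipk pairs did. In that fit Hipk1 probe 1 minus probe 2 differed by 0.46 ± 0.11 (SE), with an interval from 0.18 to 0.73, an unadjusted p of 0.00587 by limma and an adjusted p of 0.184. It was the only Hipk pair of the 5 at an unadjusted p under 0.05 by limma, where all pairs gave 12.6%. For the Hipk3 pair the interval ran from -0.06 to 0.34 (limma adjusted p = 0.591).

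**Figure D3:**
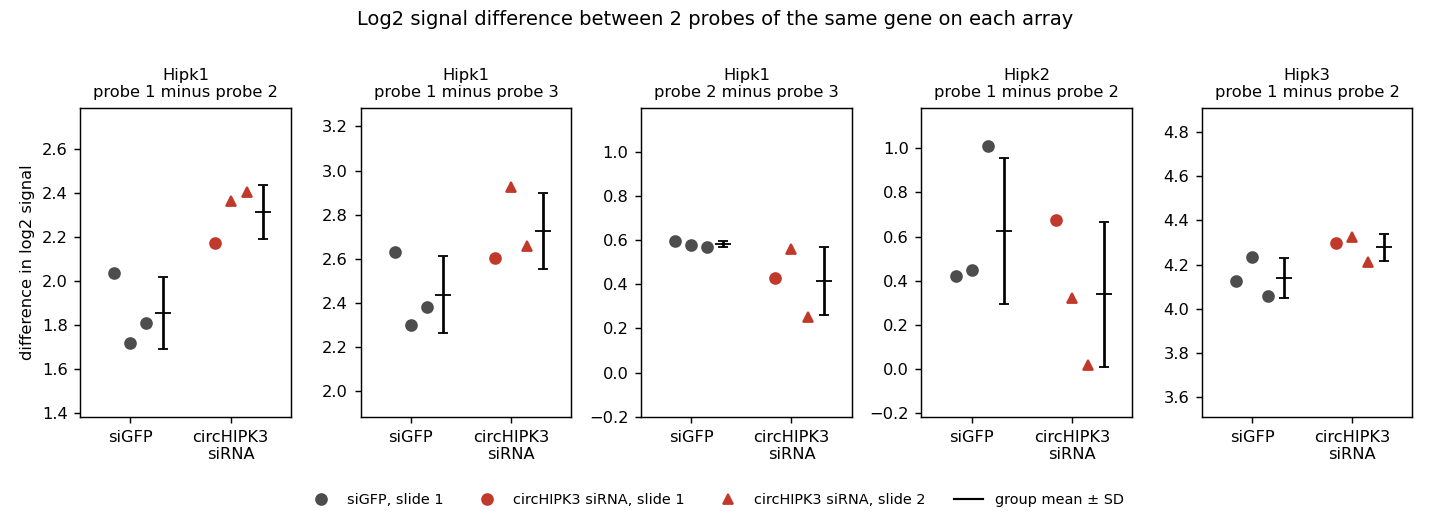
Difference in log2 signal between 2 probes of the same gene on each array, with the mean and SD of each group of 3. Circles are arrays of the first slide and triangles of the second. The groups are separate for Hipk1 probe 1 minus probe 2 (higher after circHIPK3 siRNA) and for Hipk1 probe 2 minus probe 3 (lower). How often pairs of other genes separate was not counted.

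The genes whose values followed Hipk3 most closely over the 6 arrays were listed as a description, each by its best-matching probe only. For probe 1 they were E2f8, an atypical E2F repressor gene (Pearson r = 0.995), Ahnak, which encodes a giant scaffold protein (r = 0.994), Ralgapa2, a GTPase-activating protein gene (r = 0.992), Adnp, a neuroprotective homeobox gene (r = 0.990), and Acap2, an ARF GTPase-activating protein gene (r = 0.988). For probe 2 they were Pcsk2, the prohormone convertase gene of insulin processing (r = 0.997), the ephrin gene Efnb2 (r = 0.995), the ephrin receptor gene Epha8 (r = 0.995), the deubiquitinase gene Usp49 (r = 0.995) and Maneal (r = 0.992). The lists shared 0 genes. The probes themselves correlated at r = 0.874, and 236 genes reached r = 0.9 with probe 1 and 414 with probe 2, out of 17144. With 6 arrays such values are common, and the arrays share groups and slides. Of the other family members, Hipk1 probe 2 came closest to Hipk3 probe 2 (r = 0.909), and Hipk4 ran opposite to Hipk3 probe 1 (r = -0.838).

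The relatives and partners of the HIPK proteins were examined in 5 lists with 96 distinct genes and 149 kept probes. Of these probes 3 passed, all lower, which is 2.01%, where 1.32% of all probes passed in either direction and 0.743% as lower. At an unadjusted p under 0.05 by limma there were 27, or 18.1%, against 21.0% of all probes. The lists were written with earlier results of these data known, and the 3 calls include Akt1, which the study itself followed. The share that passed is therefore no evidence about HIPK partners.

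The closest kinase relatives, the DYRK, CLK and PRP4 kinases, showed the narrowest range of these lists. They also had the fewest probes, and a range tends to be narrower with fewer probes. None of 14 probes of 10 genes passed by limma (1 at an unadjusted p under 0.05), changes ran from -0.06 to 0.29, and the median was 0.04. Dyrk1b, a kinase of quiescence and differentiation, had the smallest p of them: its 2 probes changed by 0.24 ± 0.10 and 0.29 ± 0.09 (SE, limma adjusted p = 0.246 and 0.149), each with non-overlapping groups. Prpf4b, a spliceosome-associated kinase, gave 0.08 ± 0.10 and -0.03 ± 0.12 (SE).

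In the list of p53, PML body and apoptosis genes, 1 of 35 probes of 23 genes fell and 0 rose by limma (7 at an unadjusted p under 0.05), with a median change of 0.01. The probe that fell was the brighter one of Cdkn1a, the p53 target that encodes a cyclin-dependent kinase inhibitor. It read 0.19, 0.43 and 0.45 on the siGFP arrays and -0.38, -0.48 and -0.51 on the circHIPK3 siRNA arrays, a change of -0.81 ± 0.11 (SE), 1.76-fold, with a limma adjusted p of 0.0297. Its second probe changed by -1.01 ± 0.29 (SE, limma adjusted p = 0.122), also with groups that did not overlap.

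Among stress kinase and MAPK partners, 2 of 29 probes of 15 genes fell and 0 rose by limma (5 at an unadjusted p under 0.05), with a median of 0.02. Map2k4, which encodes a kinase that activates JNK, read -0.15, -0.25 and -0.22 by probe 1 on the siGFP arrays and -0.75, -0.77 and -1.02 on the circHIPK3 siRNA arrays. Its change was -0.64 ± 0.11 (SE), 1.56-fold, with a limma adjusted p of 0.0471, and probe 2 gave -0.50 ± 0.12 (SE, adjusted p = 0.0865). The insulin-signalling kinase gene Akt1, which the study itself followed and which is therefore no independent evidence, fell by 0.84 ± 0.12 (SE) with a limma adjusted p of 0.0346. Cdkn1a, Map2k4 and Akt1 each missed the threshold when any single array other than circHIPK3 siRNA replicate 1 was left out. All 3 also missed it with slide as a fixed block, in the first slide alone and without a filter on dim probes. Map2k4 missed it too under quantile normalization (limma adjusted p = 0.0510), with slide as a random block (0.0579) and in the deposited table (0.0589), so that its call was lost in 12 of 20 alternatives. Their adjusted p-values over the 20 alternatives ran from 0.00415 to 0.227, from 0.0148 to 0.279 and from 0.00329 to 0.201. Within the first slide the differences were -0.74, -0.54 and -0.82.

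No transcription factor or cofactor partner passed by limma among 45 probes of 31 genes (11 at an unadjusted p under 0.05), and the median was -0.02. The corepressor deacetylase gene Hdac1 came closest: its 3 probes changed by -0.54 ± 0.12, -0.58 ± 0.11 and -0.51 ± 0.09 (SE) with adjusted p-values of 0.0705, 0.0564 and 0.0507, and groups that did not overlap. Between 1 and 5 of the alternatives per probe put it past the threshold. The transcription factor gene Myb gave -0.64 ± 0.13 (SE, limma adjusted p = 0.0655). In the list of ubiquitin and SUMO genes, which covers enzymes that modify or degrade HIPK proteins, 0 of 26 probes of 17 genes passed by limma (3 at an unadjusted p under 0.05), with a median of 0.01. The SUMO protease gene Senp2 gave -0.27 ± 0.10 (SE, limma adjusted p = 0.183).

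Genes next to the Hipk loci in the RefSeq annotation did not pass either: 0 of 14 kept probes of 11 genes by limma (3 at an unadjusted p under 0.05), with a median of -0.04. Of the 3 nearest annotated genes on each side of Hipk3 only D430041D05Rik had a kept probe, at -0.03 ± 0.17 (SE, limma adjusted p = 0.944). Mir1902, a microRNA gene annotated within Hipk3, had no probe. The smallest p was that of Ap4b1, an adaptor complex subunit gene near Hipk1, with 0.44 ± 0.10 and 0.36 ± 0.11 (SE, limma adjusted p = 0.0732 and 0.152). Its first probe passed in 1 of 20 alternatives, with trend and robust variance (limma adjusted p = 0.0293). Luc7l2, a splicing factor gene near Hipk2, gave -0.11 ± 0.09 and -0.24 ± 0.09 (SE).

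**Figure D4:**
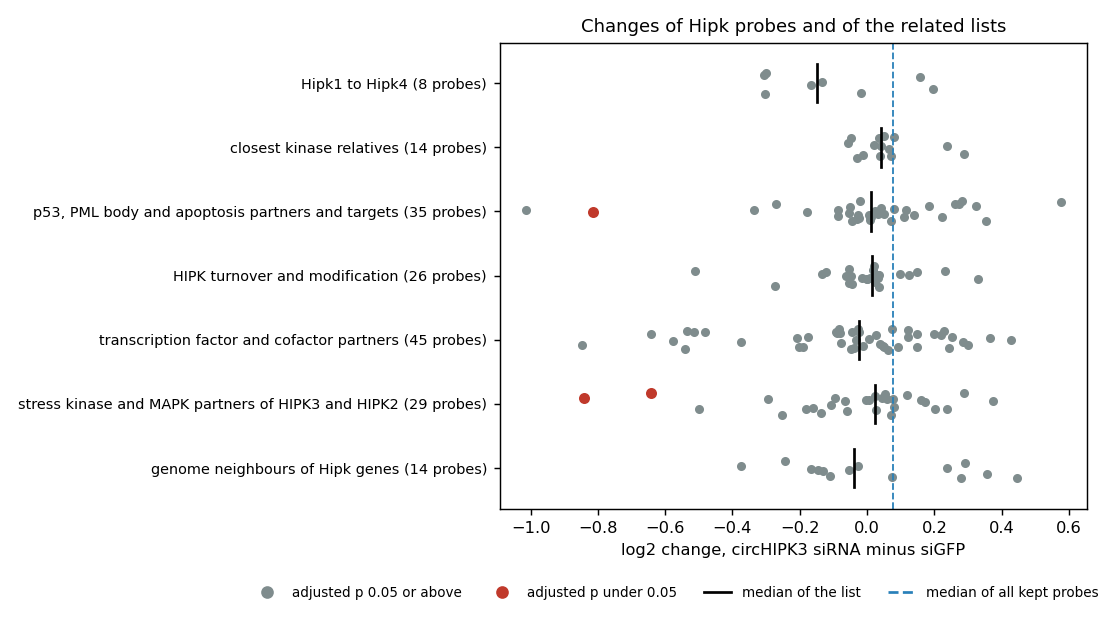
Log2 change (circHIPK3 siRNA minus siGFP) of every kept probe of the Hipk genes and of the related lists, 1 point per probe, with the median of each list as a bar and the median of all kept probes (0.08) as a dashed line. Vertical scatter within a list has no meaning. The 3 probes past the threshold, drawn larger, belong to Cdkn1a, Akt1 and Map2k4.

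The Hipk3 probes were below 0 in every alternative run, but several alternatives cannot move a change. Those that alter only the filter, the choice of probe, the variance model or the replicate block return the same value. Slide as a fixed block and the first slide alone give the same difference as each other. Quantile normalization and the deposited table give nearly the same changes as each other. Over 20 alternatives probe 1 ranged from -0.29 to -0.08 and over 19 alternatives probe 2 ranged from -0.44 to -0.24, both always below 0 and never past the threshold. Hipk1 probes 2 and 3 and Hipk2 probe 1 were likewise below 0 throughout, and Hipk4 was above 0 throughout, from 0.02 to 0.37. The signs of Hipk1 probe 1 and Hipk2 probe 2 turned in some settings. For the probes whose groups do not overlap, the direction on leaving out an array was fixed in advance.

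**Figure D5:**
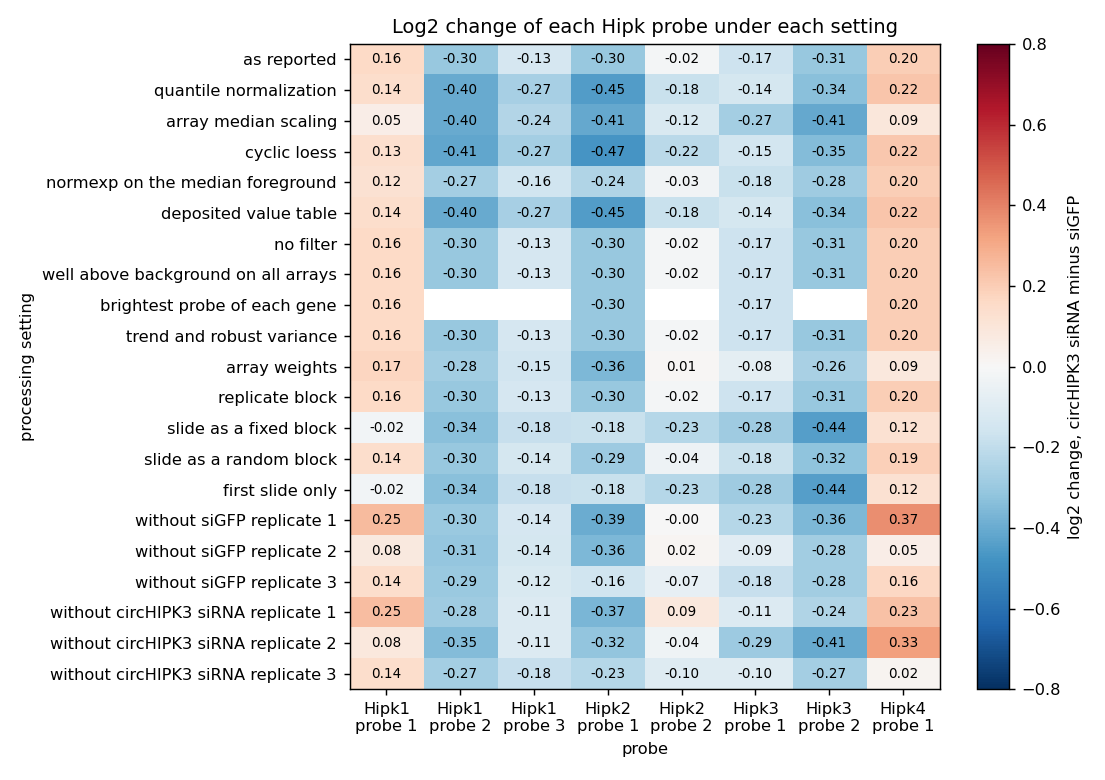
Log2 change of each of the 8 Hipk probes (columns) under each processing setting (rows), with the value in each cell and blue for lower and red for higher after circHIPK3 siRNA. Blank cells are probes that the setting does not test. No cell is past an adjusted p of 0.05, and both Hipk3 columns are below 0 in every filled cell.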

How the data were processed

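Per the file headers, the deposited scanner files give each spot a processed intensity, already background-subtracted within the array, beside raw median intensities, all linear. They come from Agilent Feature Extraction 11.0.1.1, also per the submitters' processing notes. A deposited table has log2 values for the same arrays. It follows the scanner values in scale and direction (correlations of at least 0.9999 per array) and was not centred by gene. Medians per column run from 9.7965 to 9.7968, and all columns share an upper quartile of 12.3009 and a maximum. The method behind it is not given in the sources used here, but its values behave as quantile-normalized ones. The changes of Hipk3 probes 1 and 2 were -0.1408 and -0.3373 in it and -0.1407 and -0.3373 under quantile normalization.

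Each processed intensity was divided by the 75th percentile of its array's 43020 non-control spots and log2 transformed. Spots with a non-uniformity or population outlier flag were dropped. Probes entered the fit if at least 1 group had them well above background on all 3 of its arrays. Accessions were matched to a RefSeq table of GRCm38.p6, which named 27234 of 39429 probes. The files name another build, so no coordinates are printed. limma 3.58.1 in R 4.3.3 (lmFit, eBayes, group as the only term) was fitted over the 31362 kept probes with p-values adjusted by Benjamini-Hochberg and called under 0.05, after a test on simulated data. Figures used matplotlib 3.10.9 in Python 3.11.15.

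The members, lists and tests were chosen with earlier results of these data known. Named were all Hipk probes, list members past the threshold or else the 2 with the smallest p, neighbours of Hipk3 with a kept probe, and the 5 genes most like each Hipk3 probe. A gene that this rule names is not reported here. Alternatives changed the scaling, background correction (normexp, offset 50), value source, filter, features, variance model, blocks and arrays used. Normexp used the median foreground, since a mean foreground is not among the columns used here.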

Additional observations from a re-analysis of the deposited data

How the results depend on the processing

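No Hipk probe passed the threshold under any of the 20 alternatives by limma, with 0 to 4 of them at an unadjusted p under 0.05 (the 4 with quantile normalization, cyclic loess and the value table, where all probes gave 18.1%, 17.9% and 17.6%). Signs turned for Hipk1 probe 1 with slide as a fixed block and in the first slide alone (-0.020 in both). They also turned for Hipk2 probe 2 with array weights (0.0092) and on leaving out an array (-0.10 to 0.087). Array median scaling turned Prpf4b probe 1 (-0.022), and leaving out an array gave -0.11 to 0.053 for Prpf4b probe 2. The cause was not tested. The count over all probes, 415, became 784 with median scaling, 267 with the value table, 776 with trend and robust variance, 897 with array weights and 215 with slide as a random block. It was 0 without a filter (6819 at an unadjusted p under 0.05 by limma), 1 with slide as a fixed block, 2 in the first slide alone, and 0 to 1708 on leaving out an array, the highest without circHIPK3 siRNA replicate 1, which puts the groups on separate slides. The 3 calls in the partner lists became 7, 6, 8 and 7 with median scaling, normexp, trend and robust variance, and array weights. They became 0 without a filter, with slide as a fixed block and in the first slide alone, and 0 to 4 on leaving out an array. The neighbour list had 1 call, not 0, with trend and robust variance. Deviations of same-numbered samples correlated at -0.004, 0.267 and -0.113, and those of differently numbered samples at -0.34 to 0.282. With 3 arrays per group these values cannot tell whether the numbers pair the samples. With the replicate block 0 probes passed (6360 at an unadjusted p under 0.05 by limma), 0 of them in the lists, and the Hipk changes were the same. The brightest-probe setting tests only 4 Hipk probes. The Hipk2 probes have low signal, and their changes moved most with the scaling.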
